A study of Mus musculus with 6 samples.

Results

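Immediate early and AP-1 genes are represented here by 10 transcripts chosen by symbol: Fos, Fosb, Jun, Junb, Jund, Atf3, Egr1, Nr4a1, Ier2 and Dusp1. All 10 were found among the 24346 genes of the deposited table, and 9 of them, all but Fosb, reached the mean of 1 FPKM over the 6 libraries that a gene needed to enter the test. FPKM count fragments per length of transcript and per depth of the library, a level that can be compared between genes of different length. RNA came from the caput epididymis, the first portion of the tube where sperm mature, of mice aged 8 weeks. The wild-type group (WT) and the Adgrg2-/Y group (KO), males whose single X-linked copy of the adhesion receptor gene Adgrg2 is labelled as null, had 3 libraries each. The labels name no promoter, Cre line or treatment, do not say which part of Adgrg2 was altered, and leave unstated if each library is a different mouse. The p-values therefore reflect library-to-library spread, some of which may be technical.

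Immediate early genes are transcribed within minutes of a stimulus, before any new protein is made, because the factors that switch them on, such as SRF with its ternary complex partners and CREB, are already bound or ready to be phosphorylated by MAP kinases and protein kinase A. AP-1 is the dimer formed by their best known products: a Fos protein must pair with a Jun protein through a leucine zipper, whereas Jun proteins can also pair with each other or with Atf proteins. The messages of many of these genes decay quickly, often through AU-rich elements of the 3′ UTR. In the epididymis, the initial segment of the caput depends on ERK signalling that is sustained by factors in the fluid from the testis, and Adgrg2 is known for its part in fluid reabsorption by the efferent ducts upstream of it.

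On GRCm38.p6 RefSeq places the AP-1 subunit genes Fos (ID 14281) at chr12:85473890-85477274, Fosb (ID 14282) at chr7:19302696-19310118, Jun (ID 16476) at chr4:95049036-95052222, Junb (ID 16477) at chr8:84976909-84978748, Jund (ID 16478) at chr8:70697739-70700616. The others are Atf3 (ID 11910) at chr1:191170296-191183333, Egr1 (ID 13653) at chr18:34861207-34864956, Nr4a1 (ID 15370) at chr15:101253902-101274795, Ier2 (ID 15936) at chr8:84661331-84662852, Dusp1 (ID 19252) at chr17:26505591-26508472. No other RefSeq gene overlaps any of the 10.

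Some facts of the libraries bear on all values. Adgrg2 itself stood at 808, 850 and 841 FPKM in WT replicates 1 to 3 and at 410, 324 and 328 FPKM in KO replicates 1 to 3, so it was lower in each KO library but not absent. The normalized counts summed to between 18136864 and 21455984 per library. The median SD of a gene within its genotype was 0.067 on the log2 scale in WT and 0.28 in the KO (0.14 when KO replicate 3 was left out). KO replicate 3 stood apart from the other libraries, with a mean correlation across genes of 0.894 with the WT libraries against 0.971 and 0.96 for KO replicates 1 and 2. The tissue label was borne out by 8 markers of luminal principal cells, among them Gpx5 and Lcn5, whose FPKM summed to 35690 to 41330 in WT and to 50720 to 64310 in the KO. Nearly all of that sum was Gpx5, at 33682 to 38528 FPKM in WT and 47219 to 59342 FPKM in the KO.

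The bases just before the start are shown for some of the 10 genes whose values matter most below. The RefSeq promoter table of GRCm38.p6 held 8 of the 10 genes, without Egr1 and Ier2. In the 250 bases before the start, the core of the cAMP response element, TGACG on either strand, was present in 6 of the 8 (Fos, Fosb, Junb, Atf3, Nr4a1 and Dusp1), against 26.1% of the 12456 promoters of tested genes. The whole palindrome TGACGTCA, which contains the core, was present in Dusp1 alone (2.5% of promoters), and TATAAA in Fos alone (6.52%). No match was found in the 8 windows for the AP-1 site TGANTCA (4.38% of promoters), for the CArG box bound by SRF (1.22%), for the EGR site GCGTGGGCG (1.05%) or for AAAGGTCA, the site of Nr4a1 (0.923%). Only these exact patterns in the 250 bases before the start were searched, so variant sites and sites further upstream are not covered. The promoters of Egr1 and Ier2 were not searched. A match is a description of the letters and not evidence of binding. Likewise, the lack of a match does not show that a gene lacks the site. Fos, Junb and Jund were the genes of the 10 with an unadjusted p under 0.05 in limma, as were 17.5% of all tested genes. Dusp1 was the tested gene of the 10 that was lower on average in the KO. The windows of Fos, Junb, Jund and Dusp1 read as follows from 5′ to 3′, with capitals for TGACG, TGACGTCA and TATAAA.
Fos, chr12:85473640-85473889, forward strand: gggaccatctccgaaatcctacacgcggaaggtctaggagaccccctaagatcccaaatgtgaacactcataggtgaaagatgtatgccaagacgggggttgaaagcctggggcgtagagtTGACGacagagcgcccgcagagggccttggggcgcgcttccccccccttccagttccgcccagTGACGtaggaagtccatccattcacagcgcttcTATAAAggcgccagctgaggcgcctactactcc
Junb, chr8:84978749-84978998, reverse strand: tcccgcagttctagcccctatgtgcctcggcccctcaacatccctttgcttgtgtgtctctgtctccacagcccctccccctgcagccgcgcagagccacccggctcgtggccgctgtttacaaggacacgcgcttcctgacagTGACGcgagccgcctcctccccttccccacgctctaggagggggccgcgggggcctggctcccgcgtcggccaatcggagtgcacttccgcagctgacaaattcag
Jund, chr8:70697489-70697738, forward strand: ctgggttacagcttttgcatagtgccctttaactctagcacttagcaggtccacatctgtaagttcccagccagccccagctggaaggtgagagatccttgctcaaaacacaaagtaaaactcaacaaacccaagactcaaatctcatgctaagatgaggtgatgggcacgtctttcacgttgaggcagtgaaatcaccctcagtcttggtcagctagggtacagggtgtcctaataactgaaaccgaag
Dusp1, chr17:26508473-26508722, reverse strand: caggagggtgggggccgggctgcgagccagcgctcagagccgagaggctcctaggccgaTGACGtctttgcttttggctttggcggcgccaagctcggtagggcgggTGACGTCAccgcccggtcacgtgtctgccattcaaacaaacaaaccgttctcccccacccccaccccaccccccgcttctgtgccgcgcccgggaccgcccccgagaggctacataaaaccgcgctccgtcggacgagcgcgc
The Fos window carries TGACG at 129 to 125 and at 66 to 62 bases before the start, and TATAAA at 33 to 28. In the Junb window the core lies at 106 to 102 bases. The Jund window holds no match to any of these motifs. In Dusp1 the palindrome lies at 143 to 136 bases before the start and a second core at 191 to 187.

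Some of the messages, but not those of Junb, Egr1, Nr4a1 and Ier2, hold an element that the choice of genes did not use. TATTTAT, the heptamer at the heart of AU-rich elements that Zfp36 proteins bind, was found in the 3′ UTR of 6 of the 10 genes (Fos, Fosb, Jun, Jund, Atf3 and Dusp1), with 3 copies in Dusp1 and 2 in Fos. Among the 11520 tested genes with an annotated 3′ UTR it was found in 27.3%, and in 26.8% of the 5485 whose 3′ UTR was 485 to 2145 bases long, the range of the 10 genes. A copy in each of the richest messages is shown as DNA with the heptamer in capitals.
Fos: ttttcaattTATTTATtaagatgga
Dusp1: gctggtcctTATTTATttaacaccc

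The 10 genes spanned a wide range of levels in the WT caput. Jund was the most abundant at 51.7 ± 2.02 FPKM (SD, n = 3), followed by Ier2 at 32.2 ± 3.71, Junb at 28.0 ± 1.79, Nr4a1 at 26.7 ± 3.0, Jun at 20.6 ± 0.66, Egr1 at 15.7 ± 4.34, Dusp1 at 7.58 ± 1.08, Atf3 at 2.57 ± 0.29, Fos at 1.79 ± 0.29 and Fosb at 0.18 ± 0.04 FPKM. The ranges of the 3 WT libraries overlapped among Ier2, Junb and Nr4a1 and between Jun and Egr1, so the order within those groups is not resolved. The other neighbours were apart. The inducible Fos genes were thus the lowest and the Jun genes, with the constitutive Jund first, among the highest. Egr1 was the most variable of the 10 among the WT libraries, with an SD of 0.35 on the log2(FPKM + 1) scale, and Jun the least variable of those tested, with 0.044. In the KO the mean levels ran Jund, Junb, Ier2, Egr1, Nr4a1, Jun, Dusp1, Fos, Atf3 and Fosb.

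**Figure D1:**
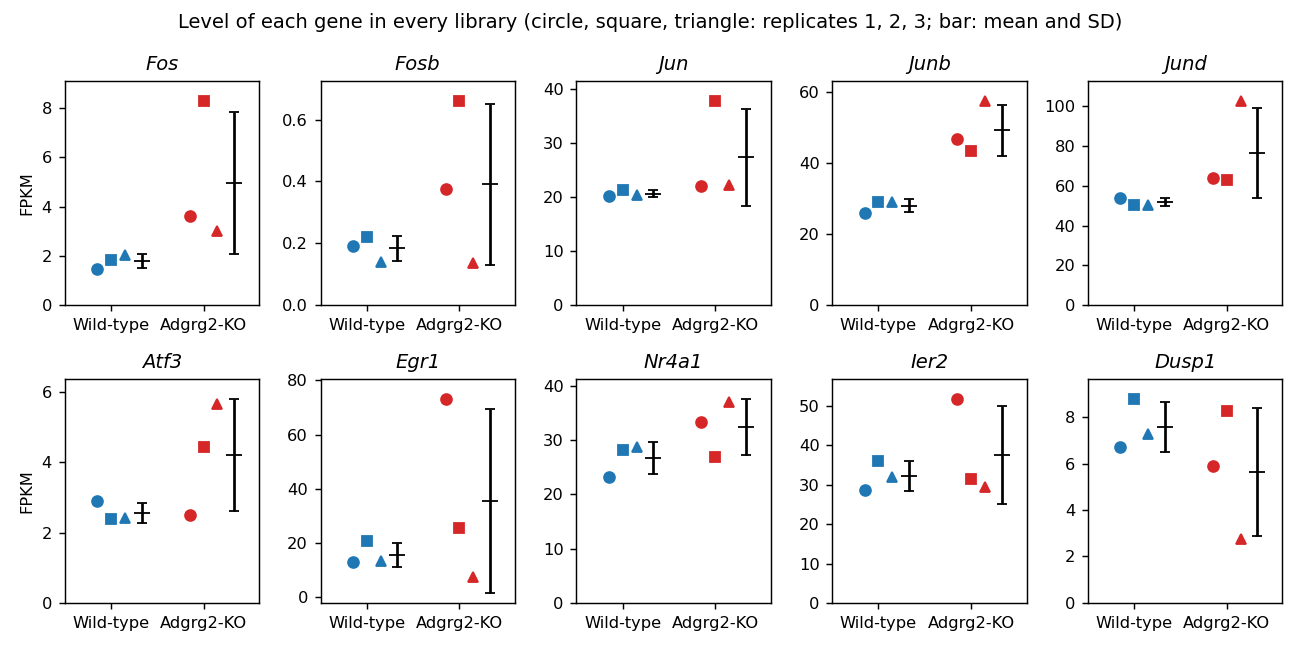
FPKM of the 10 genes in every library (vertical axes differ between panels; blue, WT; red, KO; circle, square and triangle, replicates 1, 2 and 3; black bar, mean ± SD of the 3 libraries). All 3 KO libraries lie above all 3 WT libraries for Fos, Jun, Junb and Jund, while Egr1 spans 7.71 to 73.3 FPKM in the KO.

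Against this baseline, Fos, Jun, Junb and Jund were higher in each KO library than in any WT library, but no gene of the 10 passed the threshold. The test was limma on log2(FPKM + 1), with Benjamini-Hochberg adjustment over 12799 genes and a threshold of 0.05. It called 0 of the 9 tested members, beside 0.25% of all tested genes in either direction, 0.0781% higher and 0.172% lower. At an unadjusted p under 0.05 it gave 3 members (Fos, Junb and Jund), all higher in the KO, beside 9.46% of all tested genes higher and 17.5% in either direction. The 2 genotypes did not overlap for 4 of the 9 (Fos, Jun, Junb and Jund), all with the KO higher, beside 16.8% of all tested genes with the KO higher. The median log2 change of the 9 was 0.50, with 8 of 9 above 0, beside a median of 0.01 and 51.6% above 0 over all tested genes. In bulk RNA a change in the number of cells of a type and a change in RNA per cell cannot be told apart.

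Fos encodes the inducible partner of the AP-1 dimer. Its level was 1.47, 1.85 and 2.04 FPKM in WT replicates 1, 2 and 3 and 3.61, 8.27 and 3.03 FPKM in KO replicates 1, 2 and 3. The KO libraries all lay above the WT libraries, and KO replicate 2 was the highest at 4.63 times the WT mean. On average Fos was 2.78 times as high in the KO (log2 change 1.0 ± 0.33 SE, 95% interval 0.21 to 1.79, limma adjusted p = 0.222). Without KO replicate 2 the log2 change was 0.63, and without KO replicate 3 it was 1.24 ± 0.30 (adjusted p = 0.0826).

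Fosb, whose product pairs with Jun proteins in the same way and which also gives rise to the truncated form called delta-FosB, was close to the limit of detection. It held 0.191, 0.22 and 0.141 FPKM in WT replicates 1 to 3 and 0.375, 0.659 and 0.137 FPKM in KO replicates 1 to 3, which correspond to 9.37 to 14.6 normalized counts in WT and 9.10 to 43.9 in the KO. KO replicates 1 and 2 were above the WT range and KO replicate 3 was just under it, so the genotypes overlapped. In an exact permutation test of the mean FPKM (two-sided, n = 3 against 3) p was 0.4, where the smallest value such a design allows is 0.1.

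Jun, the founding AP-1 subunit and a substrate of JNK, differed little in most libraries. WT replicates 1 to 3 gave 20.1, 21.3 and 20.3 FPKM, and KO replicates 1 to 3 gave 22, 37.6 and 22.2 FPKM. The KO libraries were all above the WT libraries, but replicates 1 and 3 by less than 1 FPKM, and the difference rests mainly on KO replicate 2 (log2 change 0.35 ± 0.22 SE, interval -0.18 to 0.87, limma adjusted p = 0.421). Without KO replicate 2 the log2 change was 0.10.

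Junb, a Jun protein that often restrains Jun while serving as a partner of Fos, had the most even difference of the 10. Its WT libraries held 25.9, 28.9 and 29.1 FPKM and its KO libraries 46.8, 43.5 and 57.4 FPKM, so the lowest KO library was well above the highest WT library. The KO mean was 1.76 times the WT mean (49.2 ± 7.25 against 28.0 ± 1.79 FPKM; log2 change 0.78 ± 0.13 SE, interval 0.46 to 1.11, limma adjusted p = 0.0979), and Junb ranked 120 of 12799 by p. It did not pass the threshold with all libraries. It passed without KO replicate 3 (log2 change 0.67 ± 0.08, adjusted p = 0.0222, where 4.93% of all tested genes pass), with quantile normalization (0.0314) and with a weight for each library (0.0355); its adjusted p ran from 0.022 to 0.50 among the alternatives.

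Jund, the constitutive member of the family, gave 54.0, 50.4 and 50.6 FPKM in WT replicates 1 to 3, and 64.0, 63.2 and 102.5 FPKM in KO replicates 1 to 3. KO replicates 1 and 2 were a little above the WT range and replicate 3 stood at 1.98 times the WT mean. The log2 change was 0.52 ± 0.20 SE (interval 0.03 to 1.02, limma adjusted p = 0.267) and 0.29 ± 0.07 without KO replicate 3 (adjusted p = 0.0696).

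Summed by family, Jun messages outnumbered Fos messages in every library, and the total of the Jun family was nearly constant in WT. Jun, Junb and Jund together reached 100.1, 100.7 and 100.03 FPKM in the WT libraries and 132.8, 144.4 and 182.2 FPKM in the KO libraries. The Fos family (Fos, Fosb, Fosl1 and Fosl2) summed to 7.49, 7.96 and 7.51 FPKM in WT and to 9.64, 17.0 and 8.96 FPKM in the KO. Both family totals were therefore higher in each KO library than in any WT library. The ratio of the Jun to the Fos total was 12.7 to 13.4 in WT and 13.8, 8.47 and 20.3 in KO replicates 1, 2 and 3, so it left the WT range on both sides. Within the Fos family Fosl2 was the main message in WT, at 71.0% to 77.4% of the total, and Fos made up 19.6% to 27.1%. In KO replicates 1, 2 and 3 Fos made up 37.4%, 48.6% and 33.8% and Fosl2 57.5%, 47.6% and 64.7%. The level of Fosl2 stayed near that of WT in KO replicates 1 and 3 (5.54 and 5.80 against 5.67 ± 0.30 FPKM in WT). In KO replicate 2 Fosl2 was at 8.11 FPKM, 1.43 times the WT mean. Junb took 25.9% to 29.1% of the Jun family in WT and 35.2%, 30.2% and 31.5% in the KO. No p is given for these sums, whose genes were chosen with results known.

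**Figure D2:**
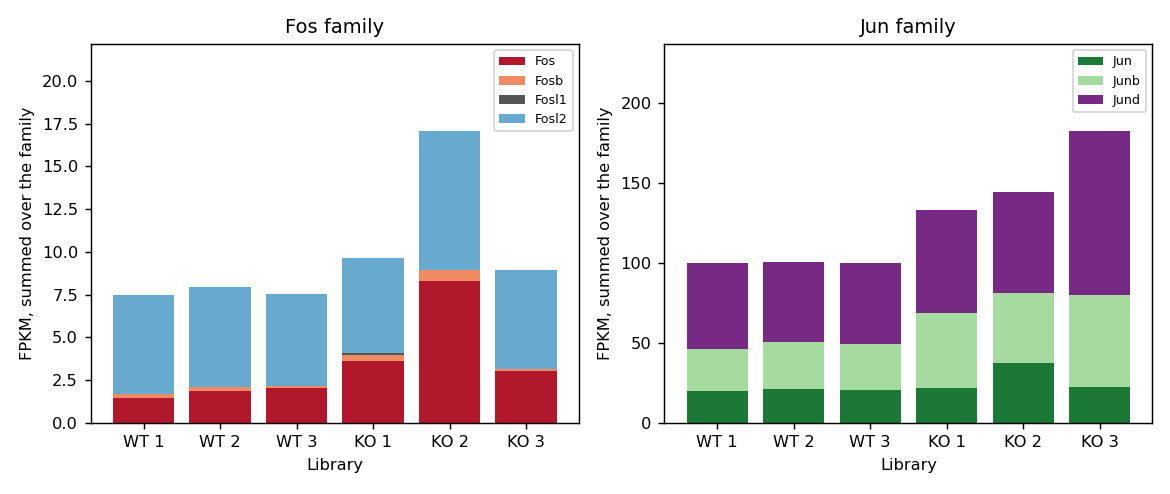
Summed FPKM of the Fos family (left) and the Jun family (right) in each library, with each gene as a segment of the bar. The Jun family sums to about 100 FPKM in every WT library and to 132.8 to 182.2 FPKM in the KO libraries, and the Fos segment is largest in KO replicate 2.

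Atf3, a stress-induced bZIP protein that pairs with Jun proteins and represses many of its targets, was low in WT at 2.90, 2.38 and 2.43 FPKM. In the KO libraries it held 2.50, 4.44 and 5.67 FPKM. KO replicate 1 lay within the WT range and the other KO libraries above it, and the log2 change of 0.50 ± 0.25 SE (interval -0.11 to 1.1) did not pass (limma adjusted p = 0.348). Its adjusted p ran from 0.0624 to 0.66 among the alternatives.

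Egr1, a zinc finger factor whose promoter is the classical readout of SRF and ERK activity, was the gene in which the KO libraries disagreed most. Its WT libraries held 13.1, 20.7 and 13.4 FPKM, and its KO libraries 73.3, 25.6 and 7.71 FPKM. KO replicate 1 was at 4.65 times the WT mean, KO replicate 2 just above the WT range, and KO replicate 3 below it at 0.49 times the WT mean, which gave a 9.5-fold range among the KO libraries. The mean was 2.26 times as high in the KO, but the log2 change of 0.66 ± 0.74 SE had an interval of -1.14 to 2.46 (limma adjusted p = 0.63). It turned to -0.11 without KO replicate 1 and reached 1.44 ± 0.46 without KO replicate 3 (adjusted p = 0.137).

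Nr4a1, an orphan nuclear receptor induced by cAMP and by growth factors, stood at 23.2, 28.2 and 28.7 FPKM in WT and at 33.3, 26.9 and 37.1 FPKM in the KO. KO replicate 2 lay inside the WT range and the genotypes overlapped (log2 change 0.27 ± 0.15 SE, interval -0.11 to 0.64, limma adjusted p = 0.391). Ier2, a small nuclear protein of the first transcriptional response, held 28.6, 36.0 and 31.9 FPKM in WT and 51.7, 31.5 and 29.3 FPKM in the KO. KO replicate 1 alone was outside the WT range, at 1.61 times the WT mean, and the same library was the highest for Egr1. The log2 change of Ier2 was 0.17 ± 0.23 SE (interval -0.39 to 0.74, adjusted p = 0.679) and turned to -0.07 without KO replicate 1. Ier2 and Junb lie on the same chromosome 8 with 23 annotated genes between them, and they had different highest KO libraries, replicate 1 for Ier2 and replicate 3 for Junb.

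Dusp1 encodes a nuclear phosphatase that switches off p38, JNK and ERK and is itself induced as an immediate early gene. It was the only one of the 9 tested genes with a lower mean in the KO. Its level was 6.70, 8.78 and 7.26 FPKM across WT, whereas KO replicates 1 to 3 gave 5.90, 8.29 and 2.77 FPKM. KO replicate 2 lay within the WT range, replicate 1 a little below it and replicate 3 at 0.37 times the WT mean. The log2 change of -0.45 ± 0.33 SE (interval -1.26 to 0.35, limma adjusted p = 0.468) was -0.09 without KO replicate 3.

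**Figure D3:**
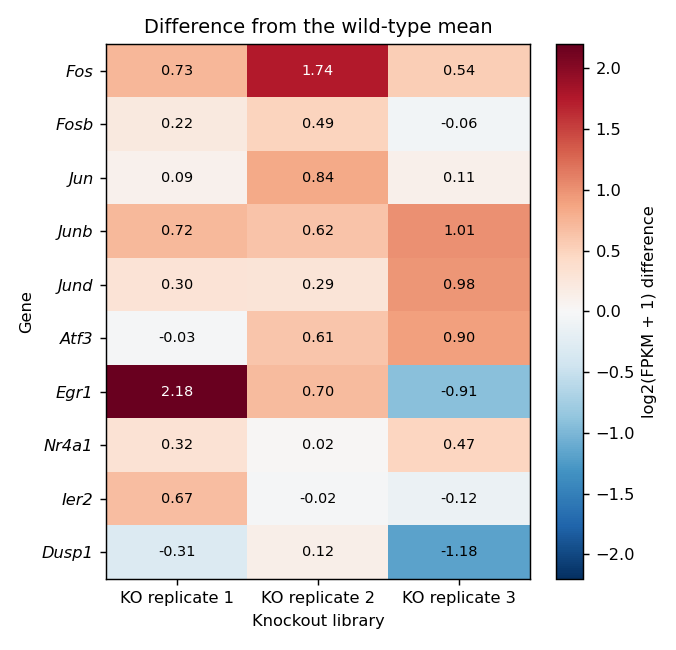
Difference of each KO library from the WT mean on the log2(FPKM + 1) scale for the 10 genes (red, higher than WT; blue, lower), with the value in each cell. The KO library with the highest value differs between genes. It is replicate 1 for Egr1 and Ier2, replicate 2 for Fos, Fosb, Jun and Dusp1, and replicate 3 for Junb, Jund, Atf3 and Nr4a1. Of the 9 tested genes, 2, 2 and 4 had their highest value of all 6 libraries in KO replicates 1, 2 and 3. The shares of all tested genes were 15.1%, 14.2% and 40.7%. In replicate 3 Egr1 and Dusp1 are well below the WT mean, and Ier2 and Fosb slightly below it.

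The 3 KO libraries thus differed in which immediate early genes were high. In KO replicate 1 the largest differences from the WT mean were those of Egr1 (2.18 on the log2(FPKM + 1) scale), Fos (0.73), Junb (0.72) and Ier2 (0.67). In KO replicate 2 they were those of Fos (1.74), Jun (0.84), Egr1 (0.70) and Junb (0.62), with Atf3 at 0.61. In KO replicate 3 they were those of Dusp1 (-1.18), Junb (1.01), Jund (0.98), Egr1 (-0.91) and Atf3 (0.90). Of the 9 tested genes, the number above every WT library was 7, 6 and 6 for KO replicates 1, 2 and 3, beside 40.2%, 37.7% and 48.9% of all tested genes. Below every WT library lay 1, 0 and 2 of the 9, beside 36.7%, 42.2% and 42.4% of all tested genes. Being outside the narrow WT range was thus common for any gene in these KO libraries.

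**Figure D4:**
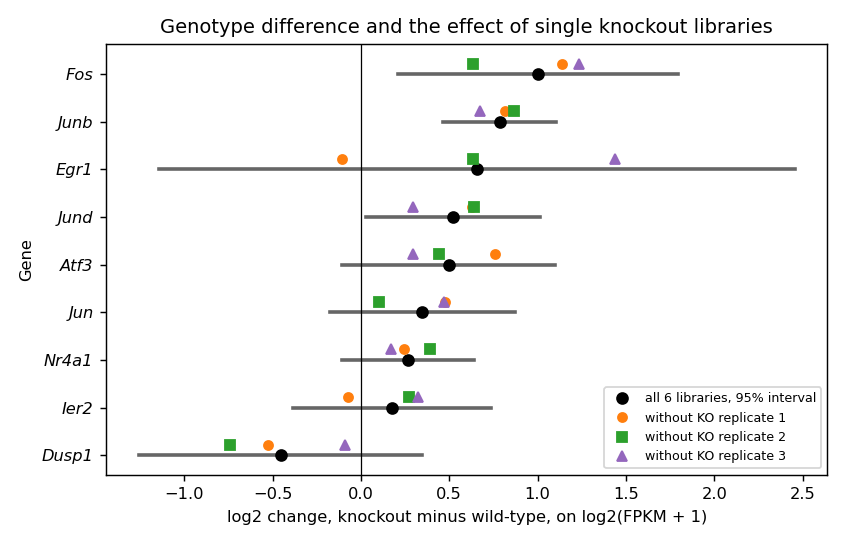
Genotype difference (KO minus WT, log2(FPKM + 1) scale) of the 9 tested genes with its 95% interval from limma, and the same value with each KO library left out. The interval excludes 0 for Fos, Junb and Jund before adjustment, and leaving out KO replicate 1 takes Egr1 and Ier2 to -0.11 and -0.07.

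Cell type markers and gene length moved with some of these values, and their part in the result was not tested. In KO replicate 3 the median marker lay below the WT mean by 3.30 for 8 smooth muscle markers, 2.39 for 6 basal cell markers, 2.97 for 7 endothelial markers, 3.55 for 7 fibroblast markers and 1.45 for 9 macrophage and leukocyte markers (log2 scale), while 8 luminal markers lay 0.74 above it. These lists summed to 2187 to 2461 FPKM in WT and 2432, 872 and 225 FPKM in KO replicates 1 to 3 for smooth muscle, to 198 to 203 and 202, 249.5 and 39.1 FPKM for basal cells, to 89.7 to 94.6 and 91.9, 72.5 and 32.8 FPKM for endothelium, to 469.7 to 539.3 and 189, 418 and 37.7 FPKM for fibroblasts, and to 218 to 226 and 136, 309.5 and 125 FPKM for macrophages and leukocytes. The smooth muscle sum is mostly Actg2, at 1828 ± 132 FPKM in WT and at 2018, 306 and 176 FPKM in KO replicates 1 to 3, while Myh11 was at 55.3 ± 2.93 FPKM in WT and at 48.9, 74.0 and 3.52 FPKM in the KO. Of the 9 macrophage and leukocyte markers, 8 lay below every WT library in KO replicate 3. Cd68 alone lay above, at 62.6 FPKM against 19.2 ± 1.98 FPKM in WT. The median of 4 narrow and clear cell markers in KO replicate 3 was 0.64 above the WT mean. Of the defining markers, Myocd of smooth muscle and Cd79a of leukocytes were listed at 0 in KO replicate 3, Cd79a also in WT replicate 3, as were several sperm markers in at least 1 library (Prm2, Tnp1, Odf1, Akap4 and Acrv1). Spermatid and sperm markers summed to 86.1 to 94.8 FPKM in WT and to 16.5, 6.72 and 1.19 FPKM in the KO, and red blood cell markers to 78.9 to 82.8 and to 5.41, 17.9 and 4.98 FPKM. In KO replicates 1 and 2 the list medians were -0.28 and 0.06 for smooth muscle, 0.04 and -0.05 for basal cells, 0.03 and -0.05 for endothelium, -1.40 and -0.28 for fibroblasts, -0.68 and 0.27 for macrophages and leukocytes, 0.40 and 0.19 for luminal cells, 0.32 and -0.32 for narrow and clear cells, -1.92 and -2.64 for sperm and -2.49 and -1.67 for red blood cells. Both these libraries held Fos, Jun, Junb, Jund and Egr1 above every WT library, as 22.1% of all tested genes were, and Fosb as well. KO replicate 3 also held more of short transcripts than of long ones: a smooth length trend put genes of the length of Junb 0.27 above, and those of Ier2 0.37 above, the WT level on the log2 scale. With that trend removed, the difference in KO replicate 3 was 0.74 for Junb, 0.93 for Jund, 0.67 for Atf3, 0.33 for Fos, -0.49 for Ier2 (-0.12 before) and -1.42 for Dusp1. The log2 change of Ier2 between the genotypes was then 0.045 in place of 0.17, and the log2 change of Junb between the genotypes was 0.69 ± 0.08 (limma adjusted p = 0.0555).

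Of 51 other immediate early genes 45 were tested, and 0 passed (0.25% of all tested genes); 7 higher and 2 lower had an unadjusted p under 0.05 in limma, beside 9.46% and 8.08% of all tested genes. Their median log2 change was 0.03, and 26 of the 45 were above 0. Nfkbiz, an inducible regulator of NF-kappaB, was at 2.82 ± 0.39 FPKM in WT and at 4.47, 5.51 and 5.59 FPKM in the KO (limma adjusted p = 0.121). Ier5l was at 2.88 ± 0.36 against 6.11, 4.77 and 4.53 FPKM (0.147), and the stress kinase gene Plk3 at 5.22 ± 0.46 against 7.84, 8.24 and 7.03 FPKM (0.147). The most abundant of the list was Egr2, a close relative of Egr1, at 159, 170 and 172 FPKM in WT and at 205, 144 and 172 FPKM in KO replicates 1 to 3 (adjusted p = 0.883). Egr2 stood far above Egr1 in every WT library, with a log2 change of 0.04 ± 0.16 SE. Bhlhe40, a circadian repressor, was at 78.0 ± 4.74 against 62.4 ± 15.8 FPKM and Phlda1 at 74.9 ± 7.41 against 74.7, 30.7 and 17.5 FPKM. Zfp36, which binds the TATTTAT element and speeds decay of such messages, was at 20.3, 23.5 and 21.5 FPKM in WT and at 31.5, 28.5 and 25.9 FPKM in KO replicates 1 to 3 (adjusted p = 0.197), and was named after its values were seen. Without KO replicate 3, 5 of the 45 genes passed, beside 4.93% of all tested genes: Ier5l, Plk3, Cyr61 and Hes1 rose and Plk2 fell (limma adjusted p = 0.049 for Ier5l, 0.042 for Plk3, 0.0246 for Cyr61, 0.0178 for Hes1 and 0.0447 for Plk2). Cyr61 was at 8.31 and 10.2 FPKM in KO replicates 1 and 2 against 3.88 ± 0.59 in WT and 1.11 in KO replicate 3.

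Among 15 other AP-1 and related bZIP genes 9 were tested and 0 passed, with a median log2 change of -0.17 and 3 of the 9 above 0. Mafg, a small Maf protein, was at 13.6 ± 0.34 FPKM in WT and at 20.0, 19.4 and 25.3 FPKM in the KO (limma adjusted p = 0.121, and 0.0228 without KO replicate 3). With all libraries 0.25% of all tested genes passed, and without KO replicate 3 it was 4.93%. Maf was at 3.29 ± 0.27 against 1.76, 2.63 and 0.51 FPKM (0.283), Atf2, a Jun partner, at 21.5 ± 0.71 against 19.6, 18.9 and 14.7 FPKM (0.332), and Mafk at 10.1 ± 1.15 against 8.78 ± 0.23 FPKM. Fosl1 was listed at 0 in WT replicates 2 and 3 and in KO replicates 2 and 3.

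Of 16 transcription factors that act on their promoters, all tested, 0 passed, 4 had a log2 change above 0, and the median was -0.18; the medians of KO replicates 1, 2 and 3 were -0.01, -0.11 and -0.43. Elk1, an SRF partner activated by ERK, was at 6.0 ± 0.29 against 7.16 ± 0.11 FPKM (limma adjusted p = 0.284), and Crtc1, a CREB coactivator, at 9.59 ± 1.05 against 7.34 ± 1.15 FPKM (0.273). Stat3 was at 44.4 ± 1.57 against 46.3 ± 4.0 FPKM, Atf1 at 21.1 ± 1.55 against 19.7 ± 3.15 FPKM and Mef2a at 21.8 ± 1.01 against 18.1 ± 5.28 FPKM. Of 25 MAP kinases and their kinases, all tested, 0 passed as well (0.25% of all tested genes did), with a median of -0.02. The genotypes did not overlap for 11 of the 25, 7 with the KO higher (16.8% of all tested genes) and 4 with the KO lower (16.1%), the latter being Mapk10, Map2k1, Map3k4 and Map3k7. Those higher included Mapk7, the kinase ERK5, at 5.31 ± 0.26 against 7.29 ± 0.43 FPKM (adjusted p = 0.158), Map3k1 at 12.5 ± 0.17 against 17.8 ± 2.66 FPKM (0.177) and Rps6ka1, an ERK-activated kinase, at 6.46 ± 0.56 against 8.37 ± 0.49 FPKM (0.217). Mapk13, a p38 kinase, was at 32.8 ± 0.49 FPKM in WT and at 38.5, 44.7 and 116.8 FPKM in the KO (0.345). Map2k2, an activator of ERK, was at 51.7 ± 3.24 against 50.8 ± 8.26 FPKM.

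Other MAP kinase phosphatases, the relatives of Dusp1, differed in direction. Of 9 genes 7 were tested, 0 passed, and 2 of the 7 were above 0, with medians of 0.26, -0.70 and -1.74 in KO replicates 1, 2 and 3. Dusp2, a nuclear phosphatase induced like Dusp1, was at 0.742, 0.896 and 0.868 FPKM in WT and at 3.21, 1.91 and 2.71 FPKM in the KO (log2 change 0.96 ± 0.18 SE, limma adjusted p = 0.106). Dusp8 was at 5.08 ± 0.12 against 2.34, 2.43 and 0.816 FPKM (0.148, and 0.0119 without KO replicate 3), and Dusp16 at 11.5 ± 0.59 against 9.43, 8.47 and 6.5 FPKM (0.207). Of all tested genes 0.25% passed with all libraries and 4.93% without KO replicate 3. Dusp6 and Dusp5, which act on ERK, followed another course from Dusp1: Dusp6 was at 67.1 ± 3.46 against 76.1, 16.4 and 4.28 FPKM and Dusp5 at 27.7 ± 3.04 against 38.9, 16.6 and 5.27 FPKM. Dusp7 was at 12.5 ± 0.784 against 13.5 ± 5.67 FPKM. KO replicate 1, the library with the highest Egr1 and Ier2, was also the highest of the 6 for Dusp2, Dusp4, Dusp5, Dusp6 and Dusp7. Of all tested genes, 15.1% were highest in that library. Dusp8 and Dusp16 lay below every WT library there. Of the 7 tested phosphatases, 5 were thus above every WT library in KO replicate 1 and 2 below, beside 40.2% and 36.7% of all tested genes.

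Of 22 textbook targets of AP-1, 16 were tested, 0 passed, 8 of the 16 were above 0, and the median log2 change was 0.01. Timp1, an inhibitor of metalloproteases, was at 8.20, 9.95 and 10.8 FPKM in WT and at 159, 65.3 and 356 FPKM in the KO, about 20 times as high on average (log2 change 3.88 ± 0.58 SE, limma adjusted p = 0.0828, and 0.0193 without KO replicate 3). Nqo1, a quinone reductase, was at 9.52 ± 0.27 against 6.18, 4.40 and 3.57 FPKM (0.116, and 0.0447 without KO replicate 3). Of all tested genes 0.25% passed with all libraries and 4.93% without KO replicate 3. The metallothionein genes Mt1 and Mt2 were at 431 ± 11.3 against 798 ± 407 FPKM and at 263 ± 12 against 457 ± 210 FPKM, with each KO library above each WT library. Such a separation with the KO higher held for 16.8% of all tested genes. Mmp3 and Mmp10, matrix metalloproteases, and Il6 and Ccl2 were among the 5 targets listed at 0 in at least 1 library.

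Heat shock genes, which respond to proteotoxic stress, gave 0 passes among 12 tested (0.25% of all tested genes passed) and a median of -0.03. Each KO library lay above each WT library for 3 of the 12, Hspa1a, Hspa1b and Hspb1 (16.8% of all tested genes), and below for 2, Hsp90aa1 and Bag3 (16.1%). Hspa1a was at 5.61 ± 0.32 FPKM in WT and at 8.32, 10.2 and 12.2 FPKM in the KO (limma adjusted p = 0.118). Hspa1b was at 15.7 ± 0.24 against 22.5, 30.2 and 37.6 FPKM (0.139), and Hspb1 at 54.4 ± 3.44 against 81.9, 85.4 and 105.1 FPKM (0.106). Without KO replicate 3 these 3 genes passed (adjusted p = 0.042, 0.049 and 0.025), as did 4.93% of all tested genes. Bag3, a co-chaperone named after its values were seen, was at 63.1 ± 6.06 FPKM in WT and at 54.8, 35.5 and 29.9 FPKM in KO replicates 1 to 3 (0.228). The constitutive Hspa8 was at 603 ± 8.81 against 598 ± 14 FPKM, Hsp90aa1 at 120.3 ± 4.29 against 100.9 ± 6.70 FPKM and Hspd1 at 112 ± 5.75 against 109 ± 13.2 FPKM.

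**Figure D5:**
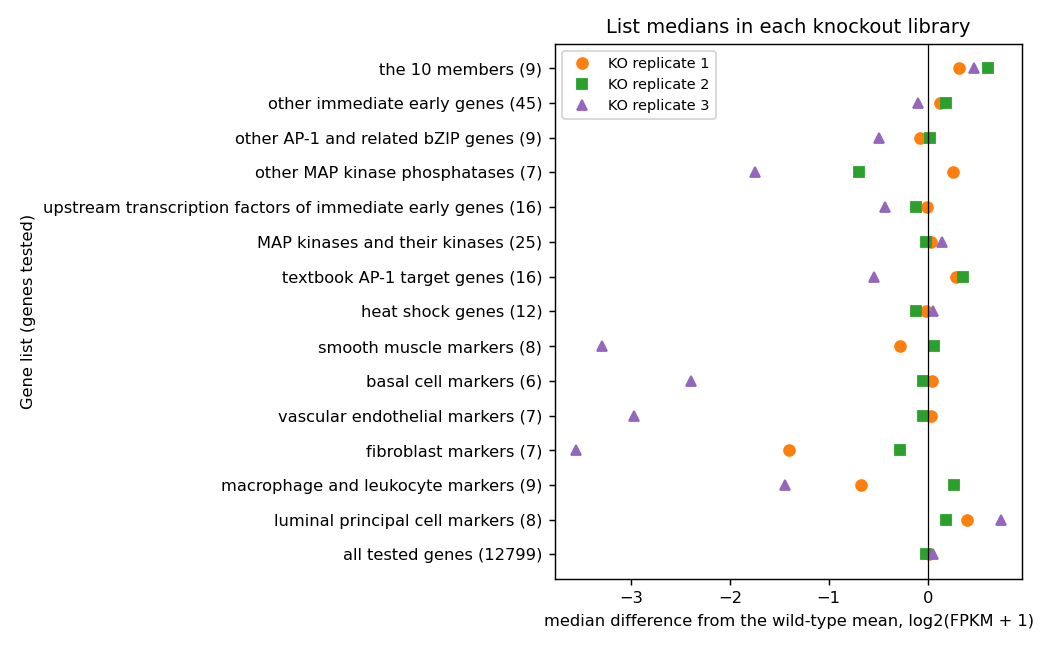
Median difference from the WT mean (log2(FPKM + 1) scale) of each gene list in KO replicates 1, 2 and 3, with the number of tested genes in brackets. The median of the 9 tested members of the set lies above 0 in all 3 KO libraries. The medians of muscle, basal, endothelial and fibroblast markers are far below 0 in replicate 3.

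The genes whose profile over the 6 libraries was nearest to that of Fos, by the mean absolute difference in deviation from the own WT mean on the log2(FPKM + 1) scale, were 4833420G17Rik (0.17), Lama5 (0.19), 2610020H08Rik (0.21), Abcc5 (0.21) and Smarca1 (0.22), beside a median of 0.57 over all tested genes. Lama5, a laminin chain of basement membranes, was at 5.32, 6.27 and 6.25 FPKM in WT and at 11.2, 13.1 and 7.75 FPKM in the KO. For Junb the nearest were 1810011O10Rik (0.045), Ccnl2 (0.045), Enkd1 (0.053), Sowahb (0.055) and 1700024P16Rik (0.056), beside a median of 0.43. Ccnl2, a cyclin linked to splicing, was at 22.1, 22.6 and 24.1 FPKM in WT and at 39.7, 37.7 and 47.6 FPKM in the KO. None of these was another immediate early gene, and the likeness was measured over 6 libraries of 2 genotypes only.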

How the data were processed

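RNA of 6 libraries, 3 per genotype, was measured by RNA sequencing with a stranded Illumina mRNA kit, per the labels' protocols. The submitters' processing notes name TopHat2 2.1.1, Cufflinks 2.2.1 and mm10; for the annotation, strand setting and scaling method, nothing is stated. Per the file headers, the authors deposited FPKM after normalization. Their count columns, also deposited, hold a signal: counts rescaled per library and no longer whole, so no count model was fitted.

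Genes averaging 1 FPKM or more (12799 of 24346) were tested with limma 3.58.1 in R 4.3.3 on log2(FPKM + 1), with empirical Bayes moderation and a mean-variance trend, two-sided, Benjamini-Hochberg adjustment over all tested genes and a threshold of 0.05. Changes on this scale are understated for low genes. Python 3.11.15 and matplotlib 3.10.9 prepared tables and figures. The fit was tested on simulated data. The precision is limited by 3 libraries per genotype.

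The 10 genes, 7 pathway lists and 9 marker lists were chosen with earlier results of these data known. Named genes were the 10 in every library, Adgrg2, and of each pathway list those past the threshold or, where fewer than 4 were, the 3 of highest mean and up to 3 of smallest unadjusted p, plus the 5 genes nearest to Fos and to Junb. A gene that this rule names is not reported here. Alternatives were a pseudocount of 0.1, no filter, a minimum mean of 5 FPKM, median of ratios scaling, quantile normalization, no trend, a weight per library, the replicate number as a block, normalized counts and each library left out. Removal of a gene length trend (lowess, span 0.5, on normalized count per FPKM) was added after seeing the data. Promoters and positions are from RefSeq (GRCm38.p6), 3′ UTRs from GENCODE M21 with 1 protein-coding transcript per gene, that of the longest coding sequence.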

Additional observations from a re-analysis of the deposited data

How the results depend on the processing

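With all libraries 32 genes passed and 0 of the 10 members. The count of genes was 16 with a pseudocount of 0.1, 101 with no filter, 17 with a minimum mean of 5 FPKM, 106 with quantile normalization, 302 with a weight per library and 6 with normalized counts; it was 2 to 631 when single libraries were left out. Of the members, 1, Junb, passed with quantile normalization and with a weight per library, and 0 to 1 when single libraries were left out, Junb without KO replicate 3. Over 9 tested members and all alternatives, 137 of 142 values kept direction and side of the threshold, 3 passed in addition (those of Junb) and 2 changed sign, both without KO replicate 1: with single libraries left out, the log2 change of Egr1 ran from -0.11 to 1.44 and that of Ier2 from -0.075 to 0.32. With the replicate number as a block 1 gene and 0 members passed; same-numbered libraries deviated together with correlations of -0.11, 0.03 and 0.08, so the numbers are not treated as a pairing. The cause of these shifts was not tested. Fos and Atf3 have no value with the minimum of 5 FPKM. Among the alternatives, Fosb has a value only with no filter (log2 change 0.22, limma adjusted p = 0.468) and with libraries left out. With single libraries left out its log2 change ran from 0.08 to 0.35, and no p was computed. The planned count test was not run, since the normalized counts were not accepted as whole fragments. Depth limits Fosb, with at most 43.9 normalized counts, and Fos in WT, with 51.8 to 71.8.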
